A study of Drosophila melanogaster with 12 samples.

Results

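The genes for translation factors and tRNA synthetases were followed in the larval fat body of Drosophila melanogaster across 2 diets and 2 genotypes. They were taken as every row of the normalized abundance table whose name begins with eIF, Ef1, Ef2, eRF or Aats-, leaving out names that repeat or differ only in letter case. This gave 50 genes of the 9367 that were kept, of which 29 were translation factors and 21 were tRNA synthetases. The rule used the names and no measured value. RNA was sequenced from fat bodies of female wandering third-instar larvae, in 12 libraries that form 4 groups of 3. The high sugar food held 0.7 M sucrose and the control food held 0.15 M. In the first genotype, r4-GAL4 drove UAS-Svpi, a hairpin against the nuclear receptor gene svp from VDRC stock 100762. In the control genotype, the same driver stock was crossed to VDRC stock 60100. All 4 groups carried r4-GAL4, which is active in the fat body, together with UAS-Dcr2 on the X chromosome. The groups were therefore high sugar svp RNAi, high sugar control, control diet svp RNAi and control diet control. Each RNAi group rests on 1 hairpin stock. Nothing in the labels tells whether replicates are separate batches of larvae, and the p-values therefore cover the spread among these 12 libraries alone, which may be technical.

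A ribosome starts on an mRNA through the initiation factors: eIF2 brings the initiator tRNA, eIF2B recharges eIF2 with GTP, eIF3 holds the small subunit, and the eIF4 factors bind the cap and unwind the leader. Elongation factor 1 alpha delivers each charged tRNA, elongation factor 2 moves the ribosome on, and release factor eRF1 ends the chain. The tRNA synthetases load each amino acid onto its tRNA, and mitochondria use a set of their own for the proteins made inside them. The fat body is the larva's organ of storage and secretion and makes the serum proteins of the hemolymph in bulk. In flies its protein synthesis follows amino acid supply through the TOR pathway.

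The gene svp itself was higher, and not lower, where the label says svp RNAi. On high sugar its normalized abundance was 1712, 1480 and 2180 in the libraries labelled svp RNAi, against 631, 628 and 664 in control libraries (log2 fold change 1.46 ± 0.16 SE, limma adjusted p = 2.2e-05). With the control food it was 1658, 1664 and 1350 in the libraries labelled svp RNAi, against 516, 477 and 373 in control libraries (1.78 ± 0.16, limma adjusted p = 6.8e-06). Every genotype direction below therefore goes by the label alone, and values given under the label are those of the libraries labelled svp RNAi. The libraries held 4380846 to 6557488 recovered reads each. Of the 8 fat body markers in the table, Lsp2, a larval serum protein gene, had the largest mean, at 612749. Adh had the smallest, with group means from 7.65 to 13.8. Of these 8, 4 were called lower under the label on high sugar and none higher: the serum protein genes Lsp1alpha (-3.57), Lsp1beta (-2.02) and Lsp1gamma (-2.23), and Fbp2 (-1.09), all log2 fold changes. On the control diet 3 were called lower, Lsp1alpha (-3.83), Lsp1beta (-1.66) and Lsp1gamma (-1.28). Lsp2 was at 0.64 on high sugar and 0.17 on the control diet and was not called. Markers of other cell types moved with the label too. Of 15 muscle genes, 9 were called lower on high sugar and 14 on the control diet. Their summed share of reads was 0.31% to 0.342% in high sugar libraries labelled svp RNAi and 0.483% to 0.65% in high sugar controls, and on the control diet 0.265% to 0.353% under the label and 0.55% to 0.686% in controls. Of 10 neuron genes, 7 were called lower and 1, Syt1, higher on high sugar, and only Syt1, higher, on the control diet. Of 9 hemocyte genes, 4 were called lower on high sugar and 2 on the control diet, and of 6 germline genes none was called in either. Only markers with a row in the table were counted, and every gene kept had at least 1 recovered read in every library. A marker's presence in all libraries was therefore fixed by its being listed. In bulk tissue, fewer cells of a type and less RNA per cell cannot be told apart.

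The filter on low values, a mean of at least 1 over the 12 libraries, removed none of the 9367 genes, so all 50 were tested. In the BDGP6 annotation 49 of them were found, and exons of 23 overlap another gene, for 18 on the opposite strand, so that part of their reads could belong to a neighbour. Their mean normalized abundance ran from 15.6 for Aats-pro to 71782 for Ef1alpha48D, with a median of 418. These values count reads and are not per length, so they rank the precision of the genes and not their transcript numbers. Replicates lay close together for this set. The median SD between replicates on the log2 scale was 0.133 for the 50 genes and 0.219 for all genes. For the 8314 genes with a mean of at least 10 it was 0.202. The median abundance was 418 for the 50 genes, 82.7 for all genes and 104 for those 8314. The set was thus read more deeply, and the part of depth in its narrower spread and intervals was not tested. The least deeply read members were the 6 mitochondrial synthetases, with means from 15.6 to 106. The 15 cytosolic synthetases ran from 127 to 1107, and the 20 initiation factor genes from 74.5 to 9664.

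The label on high sugar separated 2 members. Gene eIF-3p40, for the h subunit of the initiation factor eIF3, rose by 1.56-fold, and Ef1alpha100E, the less read of the paralogous genes for elongation factor 1 alpha, fell by 2.18-fold. A gene was called here where the adjusted p of limma, fitted to log2(value + 1) over all 9367 genes, was under 0.05. Of the 50 genes 1 was called higher and 1 lower, which is 2 calls in a comparison that called 13.4% of all genes (7.17% higher and 6.22% lower). The count lies below that background share. At an unadjusted p under 0.05 there were 11 members, against 27.5% of all genes. The median log2 fold change was 0.135 over the members and -0.009 over all genes, and 31 of the 50 were above 0, against 49.0% of all genes. For 47 of the 50 the 95% interval lay within a 2-fold change either way, while 65.8% of all genes had such an interval.

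**Figure D1:**
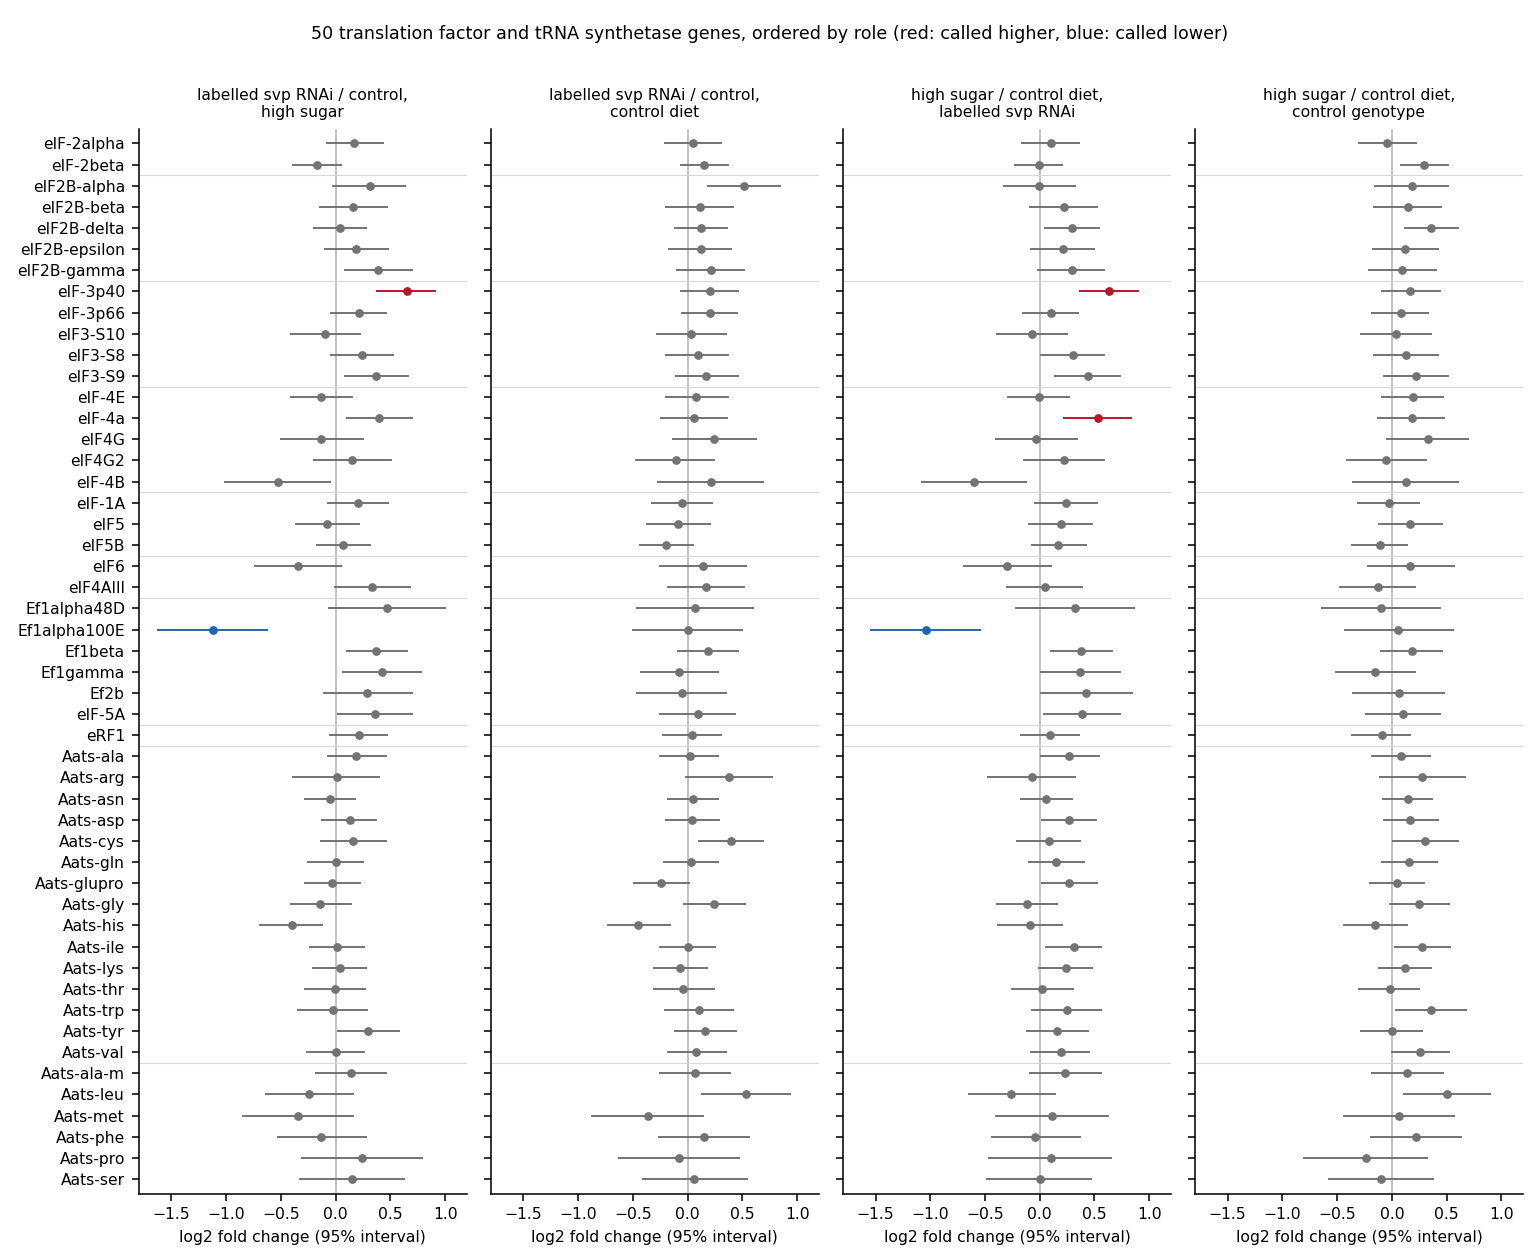
Log2 fold changes (x axes) of the 50 genes, ordered by role from initiation at the top to mitochondrial synthetases at the bottom, in 4 comparisons. Points are limma estimates with 95% intervals, the genotype panels on deposited values and the diet panels on jointly scaled reads; on high sugar eIF-3p40 stands at 0.65 and Ef1alpha100E at -1.12, and most other intervals cross 0.

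Ef1alpha100E had a normalized abundance of 136, 247 and 144 in high sugar libraries labelled svp RNAi, against 321, 366 and 428 in high sugar controls. All 3 labelled libraries were below all 3 controls. The mean was 176 ± 62.0 under the label and 372 ± 54.1 in controls (SD, n = 3 each), a log2 fold change of -1.12 ± 0.23 SE with a 95% interval from -1.62 to -0.63 and a limma adjusted p of 0.0045. The call held in all 12 runs that left out 1 library. Under the control diet the same gene had 243, 326 and 433 in libraries labelled svp RNAi, against 369, 293 and 318 in controls. These groups overlapped, and the log2 fold change was -0.00 with an interval from -0.50 to 0.50. The exons of Ef1alpha100E overlap no other gene in the annotation. The gene resembles Ef1alpha48D in its coding sequence, and no source used here gives how reads that match both were assigned. Beside the fall of Ef1alpha100E on high sugar, 9 of 15 muscle genes, 7 of 10 neuron genes, 4 of 9 hemocyte genes and 4 of 8 fat body genes were called lower, and their part in it was not tested.

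The major gene, Ef1alpha48D, had 96809, 71816 and 103980 in high sugar libraries labelled svp RNAi, against 77038, 58516 and 59919 in high sugar controls. The groups overlapped, since the lowest labelled library was below the highest control, and the log2 fold change of 0.47 ± 0.25 did not pass the test (interval -0.06 to 1.0, limma adjusted p = 0.24). Under quantile normalization it did pass, at 1.04 (limma adjusted p = 0.0059). Over its other alternatives the log2 fold change ran from 0.37 to 0.63 and the adjusted p from 0.094 to 0.50. Reads of Ef1alpha100E per 1000 reads of Ef1alpha48D, a ratio taken within each library, were 1.40, 3.45 and 1.39 in high sugar libraries labelled svp RNAi, against 4.16, 6.26 and 7.15 in high sugar controls. The ratio was lower in all 3 labelled libraries than in all 3 controls. An exact permutation test of 3 against 3 libraries cannot give a two-sided p below 0.1. Ef1alpha100E itself was called lower on high sugar, so its ratio there is not separate evidence. With the control food the ratio was 3.07, 5.75 and 6.52 under the label, against 5.6, 4.4 and 5.4 in controls, and the groups overlapped.

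**Figure D2:**
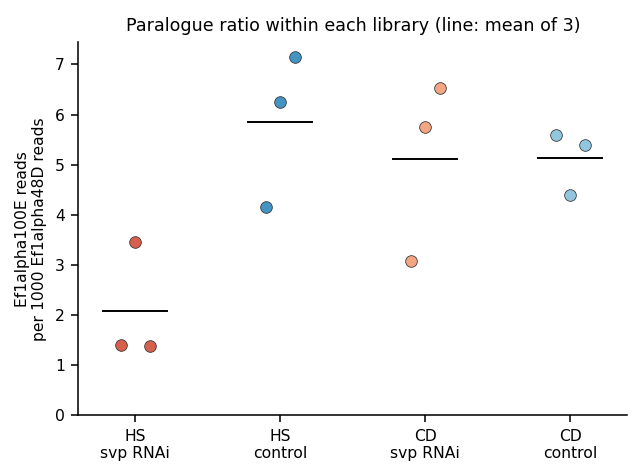
Ef1alpha100E reads per 1000 Ef1alpha48D reads (y axis) in each of the 12 libraries, by group, with a line at the mean of 3. High sugar libraries labelled svp RNAi sit between 1.39 and 3.45, below the high sugar controls at 4.16 to 7.15, while the control diet groups overlap.

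None of the other 5 elongation genes passed the test on high sugar. Ef2b, the gene for the translocating factor eEF2, had 36477, 32765 and 35284 in libraries labelled svp RNAi, against 34200, 26047 and 25848 in controls (log2 fold change 0.29 ± 0.19, limma adjusted p = 0.36). The gene eIF-5A codes for the factor that relieves ribosomes stalled on proline runs and had 8107, 5980 and 8028 under the label, against 5644, 5458 and 6018 in controls (0.36 ± 0.16, limma adjusted p = 0.16). In both genes 1 labelled library lay below the highest control. Of the 6 elongation genes, 5 were above 0 and the median was 0.365. The release factor gene eRF1 had 954, 732 and 842 under the label, against 728, 736 and 706 in controls, which overlapped (0.21 ± 0.12, limma adjusted p = 0.29).

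eIF-3p40 had 2220, 1998 and 2402 in high sugar libraries labelled svp RNAi, against 1558, 1394 and 1279 in high sugar controls. Every labelled library was above every control. The mean was 2206 ± 203 under the label and 1410 ± 140 in controls (SD, n = 3 each), a log2 fold change of 0.65 ± 0.12 SE with a 95% interval from 0.38 to 0.91 and a limma adjusted p of 0.0025. The call held in all 12 runs that left out 1 library. With the control food it had 1424, 1237 and 1287 in libraries labelled svp RNAi, against 1149, 1256 and 1037 in controls, where the groups overlapped (0.20 ± 0.12, limma adjusted p = 0.38). The gene overlaps senju on the opposite strand, and no source used here gives the strand setting of the counting. On high sugar the senju row had 51.0, 39.7 and 52.2 under the label, against 31.2, 50.8 and 60.5 in controls, with a log2 fold change of 0.05 (limma adjusted p = 0.93).

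**Figure D3:**
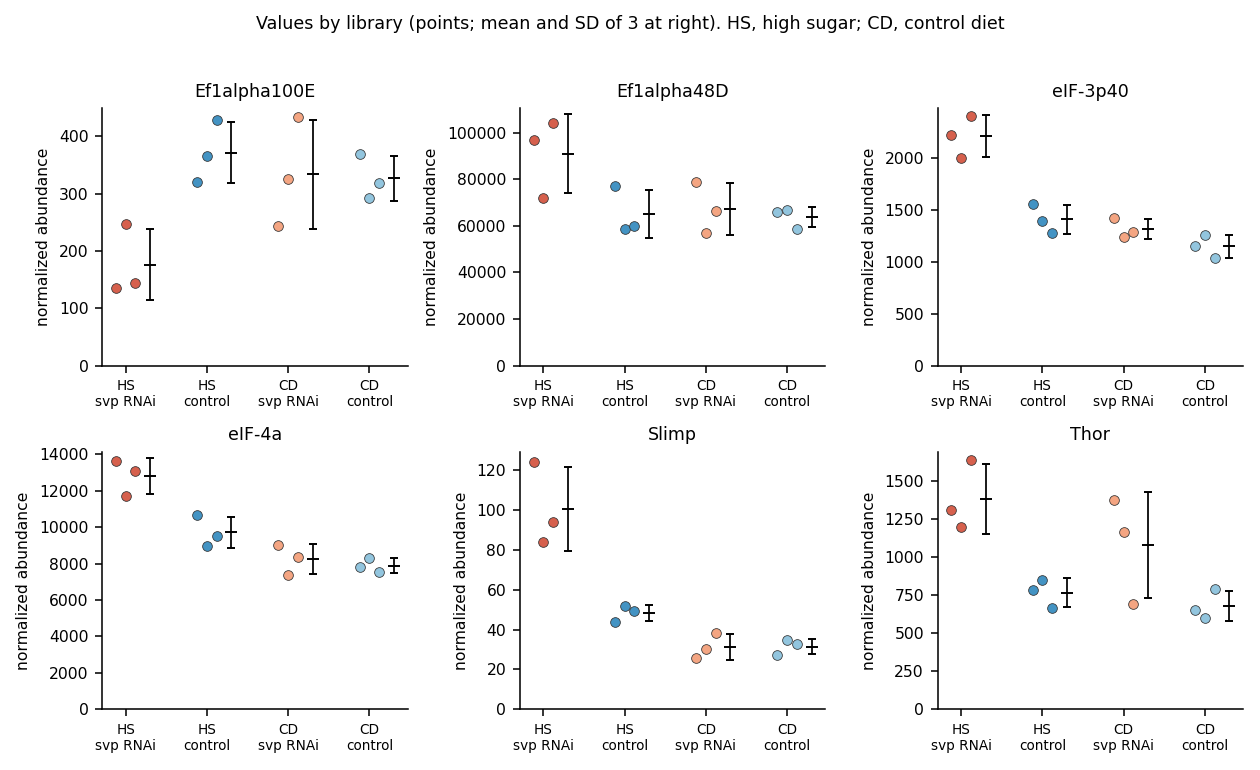
Normalized abundance (y axes, each from 0) of 6 genes in the 12 libraries, with the mean and SD of each group of 3 at the right of its points. Values were adjusted within each diet, so levels compare within a diet; the high sugar libraries labelled svp RNAi stand apart from the high sugar controls for Ef1alpha100E, eIF-3p40, eIF-4a, Slimp and Thor, and overlap them for Ef1alpha48D.

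The eIF3 complex has 13 subunit genes in the table, of which 5 carry member names and 8 are filed under other names. On high sugar 3 of the 13 were called higher and none lower, where 7.17% and 6.22% of all genes were. Of the 25 translation factors filed under other names, 2 were called higher and none lower, and both belong to eIF3. They are named after their values were seen. Trip1, for the i subunit, had 1315, 1344 and 1375 in libraries labelled svp RNAi, against 1057, 865 and 959 in controls. Every labelled library was above every control (0.49 ± 0.11, limma adjusted p = 0.0077, called in all 12 runs that left out 1 library). Trip1 overlaps the gene CG34125 on the opposite strand. CG8636, for the g subunit, averaged 1378 ± 92.7 under the label and 1007 ± 79.0 in controls (SD, n = 3 each; 0.45 ± 0.12, limma adjusted p = 0.021). That call ended without high sugar control replicate 2, where the adjusted p was 0.077, without control replicate 3, at 0.063, and without svp RNAi replicate 3, at 0.10.

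Over the 13 eIF3 genes the median log2 fold change on high sugar was 0.346, and 11 lay above 0. The scaffold gene eIF3-S10, for the a subunit, averaged 2842 ± 279 under the label and 3054 ± 462 in controls (SD, n = 3 each), a log2 fold change of -0.10 with an interval from -0.41 to 0.22. Reads of eIF-3p40 per 1000 reads of eIF3-S10 were 711, 779 and 846 in high sugar libraries labelled svp RNAi, against 434, 498 and 460 in high sugar controls. With the control food the ratio was 461, 482 and 483 under the label and 381, 441 and 451 in controls. The ratio was thus above every control library of the same diet in all 6 labelled libraries, on the control diet only narrowly. On both diets eIF-3p40 had the highest and eIF3-S10 the lowest log2 fold change of the 5 member eIF3 genes. The separation of their ratio is therefore not separate evidence, and no share of other gene pairs was taken. None of the 13 genes was called on the control diet, where their median was 0.105.

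**Figure D4:**
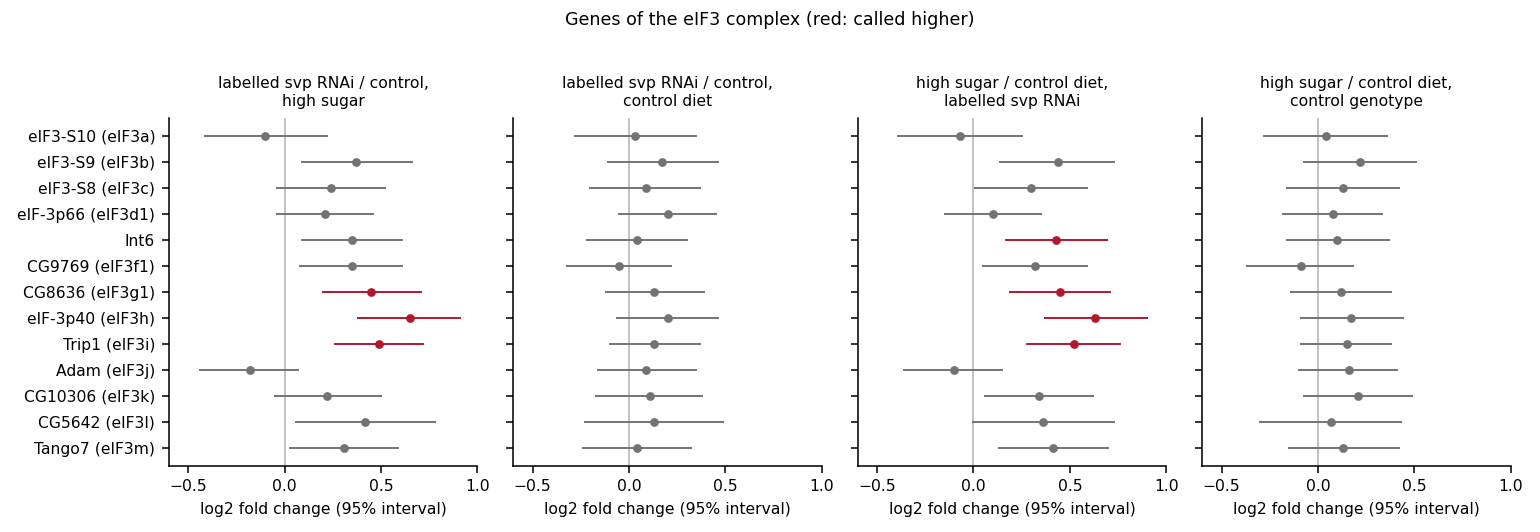
Log2 fold changes with 95% intervals (x axes) of the 13 eIF3 subunit genes in 4 comparisons, the 5 members and 8 genes filed under other names, with the current symbol in brackets. In the first panel (genotype on high sugar) and the third (diet in larvae labelled svp RNAi) most subunits lie to the right of 0, while eIF3-S10 and Adam lie left of it; on the control diet none was called.

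None of the 5 eIF4 genes was called on high sugar. The cap-binding protein gene eIF-4E had 682, 700 and 635 in high sugar libraries labelled svp RNAi, against 637, 762 and 820 in controls (log2 fold change -0.13 ± 0.13, limma adjusted p = 0.58). The scaffold gene eIF4G had 1586, 1286 and 1466 under the label, against 1225, 1746 and 1823 in controls (-0.13 ± 0.18, limma adjusted p = 0.70). The name eIF4G matched more than 1 gene in the reference tables. Its paralogue eIF4G2 averaged 394 ± 62.3 under the label and 352 ± 35.1 in controls (SD, n = 3 each; 0.15 ± 0.17, limma adjusted p = 0.60). All 3 of these overlapped between groups. The helicase gene eIF-4a had 13637, 11700 and 13079 under the label, against 10664, 8977 and 9488 in controls. The groups did not overlap, yet the fit did not call it (0.40 ± 0.14, limma adjusted p = 0.078). In this comparison 12 members were higher and 5 lower in every labelled library than in any control, where the share of all genes was 16.4% and 15.3%.

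No gene of the factors that load the initiator tRNA was called on high sugar. The gene eIF-2alpha, whose protein is phosphorylated to hold back initiation under stress, had 574, 537 and 589 in high sugar libraries labelled svp RNAi, against 564, 478 and 469 in controls (0.17 ± 0.12, limma adjusted p = 0.39). The 5 genes of eIF2B, the exchange factor for eIF2, all lay above 0 on high sugar, from 0.04 to 0.39, with none called. They also all lay above 0 on the control diet, from 0.11 to 0.51, again with none called.

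None of the 21 tRNA synthetases was called in any of the 5 contrasts. The contrasts called from 0.192% to 13.4% of all genes. On high sugar the synthetases had a median log2 fold change between genotypes of -0.001, with 10 of 21 above 0. Their range ran from -0.40 for Aats-his to 0.30 for Aats-tyr, both named after their values were seen. Aats-his, which charges the histidine tRNA, had 312, 358 and 389 in high sugar libraries labelled svp RNAi, against 551, 410 and 447 in high sugar controls. On the control diet it had 359, 334 and 352 under the label, against 434, 526 and 470 in controls. The labelled libraries were below the controls of their diet throughout, and neither comparison passed the test (limma adjusted p = 0.062 on high sugar and 0.053 on the control diet). Aats-his overlaps the gene Bx on the same strand. All 21 synthetases had a 95% interval within a 2-fold change in each genotype and diet comparison, against 65.8% to 72.7% of all genes. The 29 translation factors had a median of 0.205 on high sugar, with 21 above 0.

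A list of 14 synthetase genes filed under other names held 1 call on high sugar, where 13.4% of all genes were called. That call fell on a gene that does not charge a tRNA. Slimp, a paralogue of the mitochondrial seryl-tRNA synthetase that in flies lost this activity and is needed in mitochondria, had 124, 83.8 and 93.7 in high sugar libraries labelled svp RNAi, against 43.9, 51.7 and 49.3 in high sugar controls. Every labelled library was above every control. The mean was 100 ± 20.9 under the label and 48.3 ± 4.04 in controls (SD, n = 3 each; log2 fold change 1.03 ± 0.20, limma adjusted p = 0.0034, called in all 12 runs that left out 1 library). Under the control diet it had 25.6, 30.2 and 38.3 under the label, against 27.3, 34.5 and 32.5 in controls. Those groups overlapped (-0.01 ± 0.20, limma adjusted p = 0.98). Slimp overlaps the gene Kal1 on the opposite strand.

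Of 17 genes known to regulate translation, Thor was the 1 called on high sugar, where 13.4% of all genes were called. Thor is the 4E-BP of the fly, which binds eIF4E and keeps it from eIF4G. It had 1309, 1196 and 1638 in libraries labelled svp RNAi, against 781, 851 and 663 in controls. The groups did not overlap (0.85 ± 0.21, limma adjusted p = 0.016). The call ended without high sugar control replicate 3, where the adjusted p was 0.076, and without svp RNAi replicate 3, at 0.086. Under the control diet it had 1374, 1164 and 695 under the label, against 650, 600 and 792 in controls, and these overlapped (0.62 ± 0.21, limma adjusted p = 0.096).

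The label called none of the 50 members on the control diet, where it called 8.56% of all genes. At an unadjusted p under 0.05 there were 4 members, against 22.1% of all genes, and limma with voom weights on the recovered reads called 1, eIF2B-alpha. The median log2 fold change was 0.077 over the members and 0.006 over all genes, and 36 of the 50 were above 0, against 50.7% of all genes. All 50 had a 95% interval within a 2-fold change, against 67.7% of all genes. The smallest adjusted p was 0.051, for eIF2B-alpha, which is named after its values were seen and codes for the regulatory alpha subunit of eIF2B. It overlaps the genes CG42557 and CG42558 on the opposite strand. On high sugar it had 90.7, 89.2 and 83.5 under the label, against 68.4, 68.3 and 76.0 in controls (0.31 ± 0.15, limma adjusted p = 0.21). On the control diet it had 82.9, 81.5 and 80.9 under the label, against 50.2, 53.6 and 68.8 in controls (0.51 ± 0.15). The groups did not overlap on either diet. There, 8 members were higher in every labelled library than in any control, against 13.8% of all genes, and 4 were lower, against 12.3%. None of the 25 other factors, 14 other synthetases or 17 regulators was called by limma on log2 values on this diet. With voom weights 1 regulator was called, dm, the Myc gene of the fly, named after its values were seen. It averaged 190 ± 16.1 under the label and 253 ± 28.8 in controls (SD, n = 3 each; -0.41 ± 0.13, limma adjusted p = 0.057, and 0.047 with voom weights). The 3 members higher without overlap on both diets were Aats-cys, Ef1beta and eIF2B-alpha. They are 3 of the 12 on high sugar and 3 of the 8 on the control diet. The 1 member lower on both was Aats-his. No share of all genes was taken for both diets together, so these shared counts have no background beside them.

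None of the core genes was called on the control diet. Ef1alpha48D had 78973, 56727 and 66369 in libraries labelled svp RNAi, against 65792, 66703 and 58747 in controls (0.07 ± 0.25). Ef2b averaged 24238 ± 3430 under the label and 25045 ± 2530 in controls (SD, n = 3 each; -0.05 ± 0.19), and eIF-5A 5233 ± 887 under the label and 4896 ± 435 in controls (0.09 ± 0.16). The gene eIF-4E averaged 633 ± 94.7 under the label and 593 ± 32.6 in controls (0.08 ± 0.13), and eIF-4a 8254 ± 838 under the label and 7887 ± 400 in controls (0.06 ± 0.14). For eIF4G, eIF-2alpha and eRF1 the log2 fold changes were 0.24, 0.05 and 0.04, and for eIF4G2 -0.11. In all 9 of these genes the libraries of the groups overlapped.

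The deposited values were adjusted separately within each diet, so the diets were compared on read counts recovered from them and scaled over all 12 libraries together. In larvae labelled svp RNAi, high sugar called 3 of the 50 members, 2 higher and 1 lower, where it called 8.44% of all genes (4.73% higher and 3.72% lower). The count is close to the background share. These were eIF-3p40, eIF-4a and Ef1alpha100E. The comparison shares the high sugar libraries labelled svp RNAi with the genotype comparison on high sugar, so the calls of the same genes in both are not separate evidence. At an unadjusted p under 0.05 there were 15 members, against 25.4% of all genes. The median log2 fold change was 0.165 over the members and -0.015 over all genes, with 36 of 50 above 0 against 48.6% of all genes. For 48 of the 50 the interval lay within a 2-fold change, against 67.5% of all genes.

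eIF-3p40 had 2136, 1911 and 2316 scaled reads on high sugar, against 1472, 1281 and 1338 on the control diet, in larvae labelled svp RNAi. All high sugar libraries were above all control diet libraries (0.63 ± 0.13, limma adjusted p = 0.0082, called in all 12 runs that left out 1 library). The helicase gene eIF-4a had 13120, 11196 and 12613 on high sugar, against 9325, 7617 and 8714 on the control diet, with no overlap (0.53 ± 0.14, limma adjusted p = 0.037). Its call was close to the threshold. It ended without control diet control replicate 1 (adjusted p = 0.054), control diet svp RNAi replicate 2 (0.12) or 3 (0.084), or high sugar svp RNAi replicate 1 (0.11) or 3 (0.12), and under quantile normalization. That normalization called Ef1alpha48D instead, at 1.02 (limma adjusted p = 0.015), where the fit on log2 values gave 0.32 ± 0.25 (limma adjusted p = 0.46). Ef1alpha100E had 131, 237 and 139 on high sugar, against 251, 338 and 450 on the control diet (-1.04 ± 0.23, limma adjusted p = 0.015). The highest of the high sugar libraries lay just under the lowest of the control diet. This call ended without control diet svp RNAi replicate 3 (adjusted p = 0.062) or high sugar svp RNAi replicate 1 (0.058) or 3 (0.074). Of 9 hemocyte genes 5 were called lower in this comparison, of 10 neuron genes 2 were called lower, of 8 fat body genes 1 was called lower, and of 15 muscle genes none was called. The part of hemocytes, neurons and fat body genes in the fall of Ef1alpha100E was not tested.

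Of the 25 translation factors filed under other names, 4 were called higher by high sugar in larvae labelled svp RNAi and none lower. Of all genes 4.73% were called higher and 3.72% lower. Trip1 had 1265, 1286 and 1326 scaled reads on high sugar, against 974, 849 and 891 on the control diet (0.52 ± 0.11, limma adjusted p = 0.013). CG8636 averaged 1324 ± 93.2 on high sugar and 968 ± 82.5 on the control diet (SD, n = 3 each; 0.45 ± 0.12, limma adjusted p = 0.036). Int6, for the e subunit of eIF3, averaged 1398 ± 48.2 on high sugar and 1040 ± 99.0 on the control diet (0.43 ± 0.12, limma adjusted p = 0.045). The poly(A)-binding protein gene pAbp averaged 21994 ± 2220 on high sugar and 14412 ± 1150 on the control diet (0.61 ± 0.18, limma adjusted p = 0.049). None of these 4 overlapped between diets. Each was lost in some runs that left out 1 library: Trip1 was called in 10 of 12 such runs, CG8636 in 7, Int6 in 3 and pAbp in 2. With the replicate number as a block, the adjusted p was 0.051 for CG8636, 0.050 for Int6 and 0.055 for pAbp, and those 3 calls ended. The Int6 call also ended with a filter of a mean of at least 10 (0.051), with voom weights (0.051) and with quantile normalization (0.081). Over the 13 eIF3 genes 4 were called higher by limma on log2 values and 3 with voom weights, none was called lower, the median was 0.365, and eIF3-S10 was at -0.07.

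Slimp rose as well, with 119, 79.9 and 90.5 scaled reads on high sugar, against 26.5, 31.3 and 39.5 on the control diet, in larvae labelled svp RNAi. The groups did not overlap (1.54 ± 0.20, limma adjusted p = 0.00059, called in all 12 runs that left out 1 library). In control larvae it had 42.3, 49.5 and 47.3 on high sugar, against 28.6, 36.4 and 33.9 on the control diet. These groups also did not overlap, but the difference did not pass the test (0.48 ± 0.20, limma adjusted p = 0.27). None of the 17 regulators was called by limma on log2 values for diet in larvae labelled svp RNAi, against 8.44% of all genes. With voom weights 1 regulator was called, Gcn2. The limma adjusted p of this gene was 0.052 on log2 values and 0.045 with voom weights. Gcn2 is the kinase that senses uncharged tRNA and phosphorylates eIF2 alpha, and averaged 239 ± 8.30 on high sugar and 171 ± 15.9 on the control diet (SD, n = 3 each; 0.48 ± 0.14). It overlaps the gene PNPase on the opposite strand.

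In control larvae high sugar called none of the 50 members by limma, where it called 1.90% of all genes, and voom weights on the recovered reads also gave none. None of the genes on the 3 other lists was called either. At an unadjusted p under 0.05 there were 6 members, against 15.5% of all genes. The median log2 fold change was 0.128 over the members and -0.006 over all genes, and 38 of 50 were above 0 against 49.2% of all genes. All 50 intervals lay within a 2-fold change, against 72.7% of all genes. The diet medians of synthetases and factors were above 0 in both genotypes. In larvae labelled svp RNAi the diet median was 0.109 for the synthetases, with 15 of 21 above 0, and 0.208 for the 29 factors, with 21 above 0. In control larvae it was 0.148 for the synthetases, with 17 of 21 above 0, and 0.125 for the factors, with 21 above 0. Without overlap, 16 members were higher and 2 lower on high sugar in larvae labelled svp RNAi, against 17.4% and 13.7% of all genes. In control larvae 11 were higher and 1 lower, against 10% and 9.76%. The 4 members higher without overlap in both genotypes were Aats-asp, Aats-ile, eIF2B-delta and eIF3-S9, which is 4 of 16 and 4 of 11. No member was lower in both. For both genotypes together no share of all genes was taken, so these shared counts have no background beside them.

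eIF2B-delta, for the delta subunit of the eIF2 exchange factor, had the smallest adjusted p of the members in control larvae. It overlaps the gene Mtmr6 on the opposite strand. In larvae labelled svp RNAi it had 271, 288 and 278 scaled reads on high sugar, against 254, 205 and 225 on the control diet (0.29 ± 0.11, limma adjusted p = 0.12). In control larvae it had 271, 278 and 265 on high sugar, against 202, 217 and 214 on the control diet (0.36 ± 0.11, limma adjusted p = 0.13). High sugar libraries were above control diet libraries in both genotypes, and neither difference passed the test. The core genes in control larvae lay between -0.10 for Ef1alpha48D, at 62614 ± 10200 on high sugar and 66653 ± 4930 on the control diet, and 0.33 for eIF4G, at 1534 ± 307 on high sugar and 1207 ± 102 on the control diet (SD, n = 3 each). Ef1alpha100E was at 0.06, with 309, 350 and 411 on high sugar, against 384, 309 and 329 on the control diet.

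**Figure D5:**
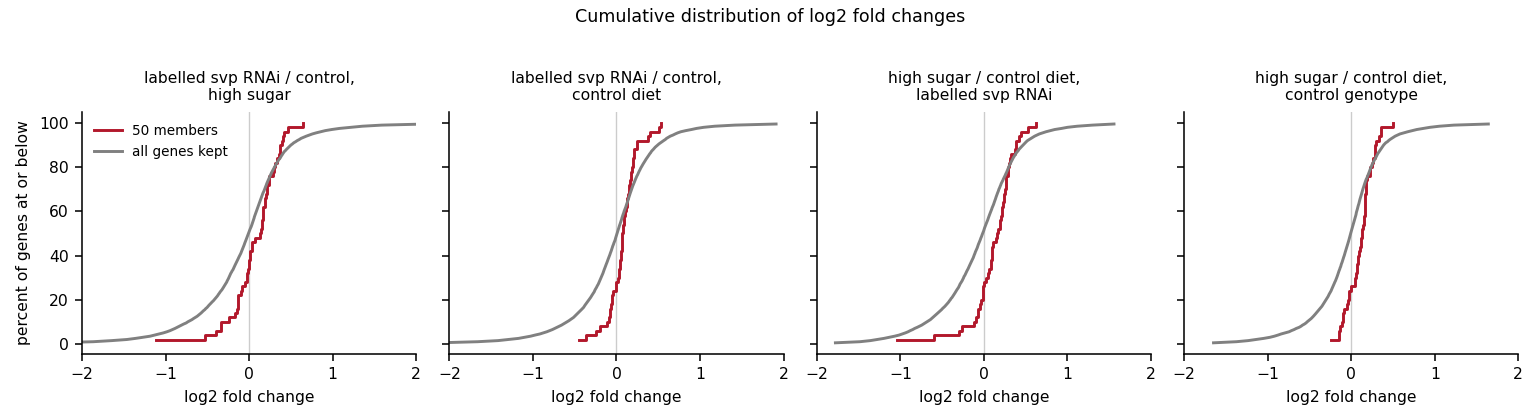
Percent of genes (y axis) at or below each log2 fold change (x axes) in 4 comparisons, for the 50 genes and for all genes kept. The curve of the 50 genes is steeper and lies to the right at its middle, with medians of 0.135, 0.077, 0.165 and 0.128 from left to right against -0.009, 0.006, -0.015 and -0.006 for all genes.

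Whether the effect of the label differed between diets was tested by the interaction of diet and genotype, and no member passed it. It called 0.192% of all genes. At an unadjusted p under 0.05 there were 6 members, against 11.8% of all genes, and voom weights on the recovered reads also called none of the 50. For Ef1alpha100E the interaction was -1.12 ± 0.33 on the log2 scale, with a 95% interval from -1.82 to -0.42, an unadjusted p of 0.004 and a limma adjusted p of 0.23. For eIF-3p40 it was 0.45 ± 0.17 (limma adjusted p = 0.34), for Slimp 1.04 ± 0.29 (0.20), for Trip1 0.36 ± 0.15 (0.39) and for Thor 0.23 ± 0.30 (0.80). So the calls made on high sugar and missed on the control diet were not shown to differ between the diets. For 86% of the members the interval of the interaction lay within a 2-fold change, against 53.9% of all genes.

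The 50 genes together took 3.51%, 3.17% and 3.69% of the recovered reads in high sugar libraries labelled svp RNAi, against 2.93%, 2.52% and 2.37% in high sugar controls. On the control diet they took 2.91%, 2.68% and 2.78% under the label, against 2.52%, 2.40% and 1.96% in controls. On each diet the labelled libraries were above the controls, where an exact permutation test of 3 against 3 cannot give a two-sided p below 0.1. Ef1alpha48D alone made up 0.905% to 1.86% of a library, and the 21 synthetases together 0.0871% to 0.133%. Without Ef1alpha48D the remaining members, factors and synthetases together, took 1.83%, 1.79% and 1.83% in high sugar libraries labelled svp RNAi. In high sugar controls they took 1.61%, 1.45% and 1.35%. A share depends on what else is in the library. Mitochondrial transcripts took 0.407% to 2.20% of reads in high sugar libraries labelled svp RNAi and 2.25% to 5.02% in high sugar controls, and the fat body markers took 23.6% to 26.1% under the label and 28.3% to 30.3% in controls. Their part in the members' share was not tested.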

How the data were processed

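Fat body RNA, depleted of ribosomal RNA, was sequenced in 12 libraries, 4 groups of 3. TopHat 1.3.2, Bowtie 0.12.7, Cufflinks 1.1.0, edgeR and the build dm3 stand in the submitters' processing notes. The deposited table holds 1 signal value per gene and library, a normalized abundance the authors adjusted within each diet, and no reads. Deposited totals were 4663394 to 6490130 per library. Of 9527 rows, 156 whose names repeat or differ only in case and 4 with a number for a name were left out.

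The adjustment was inverted to whole reads, taken as whole within 0.1. For genes with a group mean under 12, 100% of values were whole, against 4.8% to 66.31% as deposited. The inversion was fitted to make these same genes whole, so their share is no check of it. For held-out genes up to 20 at least 99.31% of values were whole. Genes above 20 were not checked in this way, and the median mean of the members was 418. The diets were compared on these reads after joint median-of-ratios scaling, because the deposited values put the median gene 0.1035 (log2) higher on high sugar, and the joint scaling -0.008847. limma 3.58.1 in R 4.3.3 with an intensity trend was fitted to log2(value + 1) over the 4 groups, genes with a mean of at least 1, with Benjamini-Hochberg adjustment over 9367 genes and a threshold of 0.05. A fold change on this scale understates low genes. The count-aware alternative was limma with voom weights on the recovered reads.

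Named members were up to 12 called genes per contrast by size, 8 core genes and their paralogues. Other members fall outside this rule and were named after their values were seen, also where the text does not say so. The members and gene lists were chosen with earlier results of these data known. Symbols were matched to the reference gene tables: 5 members carry a current symbol, 44 a synonym and 1 an ambiguous name. Promoter sequence was not analysed here. The steps were tested on simulated data.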

Additional observations from a re-analysis of the deposited data

Results flagged for a closer look

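For 3 genes every library of one group moved one way and every library of another the opposite way under the same contrast. They were picked by this pattern, and the share of all genes that show it was not taken. In a single genotype or diet comparison, 9.76% to 17.4% of all genes did not overlap in a given direction. The difference itself was then read from the interaction of diet and genotype in limma, and none passed the test. For Aats-leu, the mitochondrial leucyl-tRNA synthetase, the interaction was -0.77 on the log2 scale (limma adjusted p = 0.29). Its normalized abundance on high sugar was 48.2, 48.7 and 45.2 in libraries labelled svp RNAi, against 57.6, 58.6 and 52.4 in controls. On the control diet it was 62.2, 58.1 and 40 under the label, against 35.3, 33.5 and 39.7 in controls, where 1 labelled library lay barely above the highest control. For eIF-2beta, the beta subunit of eIF2, the interaction was -0.32 (limma adjusted p = 0.40). It had 665, 611 and 592 on high sugar under the label, against 682, 676 and 742 in controls, and 611, 566 and 571 on the control diet under the label, against 540, 513 and 521 in controls. It overlaps the gene ver on the opposite strand. For Tsc1, a brake on TOR from the list of regulators, the interaction was 0.56 (limma adjusted p = 0.29). In larvae labelled svp RNAi it had 171, 173 and 178 scaled reads on high sugar, against 166, 131 and 148 on the control diet. In control larvae it had 155, 134 and 124 on high sugar, against 171, 167 and 182 on the control diet. Groups of 3 libraries are too small for a test of single outlying libraries.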

How the results depend on the processing

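No result reversed under any alternative run. On the control diet the label called no member, but 1, eIF2B-alpha, with a filter of a mean of at least 10 or with voom weights, and 2, eIF2B-alpha and Aats-his, with quantile normalization; leaving out 1 library gave 0 to 2. On high sugar it called 2 members, and 4 with quantile normalization, which added Aats-his and Ef1alpha48D; leaving out 1 library gave 2 to 5, with 5 without high sugar control replicate 1. High sugar in control larvae called 0, and 2, eIF-2beta and eIF2B-delta, on the deposited values, with 0 to 0 when a library was left out. In larvae labelled svp RNAi it called 3, also 3 with quantile normalization (eIF-4a lost, Ef1alpha48D gained), and 9, of which 8 higher and 1 lower, on the deposited values, where the median of all genes is itself 0.092 above 0; leaving out 1 library gave 1 to 5, with 1 without control diet svp RNAi replicate 3 or high sugar svp RNAi replicate 1 or 3, and 5 without high sugar control replicate 1. The interaction called 0 throughout, 0 to 0 with a library left out. Voom weights called 797 of the 9367 genes on the control diet. No share of all genes was taken for the other filter, the other scalings, the runs without 1 library or the replicate block. Their member counts therefore have no background beside them. Over 18 same-numbered pairs of libraries the correlation of deviations from the group means ran from -0.194 to 0.164, with 2 over 0.1. Differently numbered pairs ran from -0.191 to 0.222. Deviations within a group of 3 libraries are tied to one another. These values therefore cannot tell whether replicate numbers mark shared batches. A fit with the replicate number as a block called 0 members on the control diet, 2 on high sugar, 0 by diet in control larvae, 4 by diet in larvae labelled svp RNAi (adding eIF3-S9) and 0 in the interaction. With 3 libraries a group, 47 of 50 members had an interval within a 2-fold change on high sugar, so smaller changes may have been missed.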
